A study of Mus musculus with 21 samples.

Results

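The genes described here are the mouse replication-dependent histone genes, which encode the linker histone H1 and the core histones H2A, H2B, H3 and H4 and lie in the clusters Hist1 to Hist4. They were taken by symbol, as every gene of the expression table named Hist1 to Hist4 followed by a histone class, and no measured value enters this rule. The pattern matched 71 of the 37620 genes. The testis-specific genes Hist1h1t and Hist1h2ba were left out, which gave 69 genes. The measurements were RNA-seq values of germ cells enriched by collagenase and trypsin digestion from testes of C57BL/6J (B6) males at 12 dpp. Each of 4 sample numbers, which were 186wt, 343wt, 444wt and also 456wt, had 3 libraries, 12 in all, and strain, sex and age were the same in all of them. There was no treated or mutant group, so the only comparison the design allows is between the 4 sample numbers. The number of animals behind a sample number was not given in the sources used here. The 3 libraries of a number were therefore averaged to 1 value for every mean and SD (n = 4). The test between sample numbers below instead used the 12 libraries.

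Values are FPKM, fragment numbers that the authors divided by transcript length and library size, so levels of different genes are already per length. In all, 57 of the 69 genes had a mean of at least 0.1 FPKM, and 48 were at 0 in some library. The files hold no counts. From the step size of low values, a library was estimated to hold 13.5 to 18.1 M fragments, and in such a library 1 fragment was worth between 0.0174 and 0.271 FPKM for histone genes with a single transcript (median 0.146 FPKM). Values under about 1 FPKM therefore rest on a few fragments for most of these short genes. The labels name the cells spermatocytes, and the 10 genes of meiotic prophase had medians of 28.1 to 48.2 FPKM. Markers of Sertoli cells, the somatic nurse cells of the tubule, were also abundant: 9 of 10 were found, none at 0, and their summed level was 4677 FPKM in 186wt, 4833 in 343wt, 2698 in 444wt and 2879 in 456wt.

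Replication-dependent histone genes are transcribed mainly in S phase, when new DNA has to be packed into nucleosomes. Unlike nearly all other animal mRNAs, theirs end without a poly(A) tail. They end instead in a short stem-loop that binds the stem-loop binding protein (SLBP) and is cut by a complex with the U7 snRNP, and they are broken down when replication stops. Some of the genes can also give longer, polyadenylated transcripts from a signal downstream, a form known from cells that have left the cycle. In the testis, dividing spermatogonia and preleptotene spermatocytes replicate DNA, whereas later spermatocytes do not.

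The stem-loop was searched in the genome within 200 bases after the stop codon of the 65 members annotated as protein-coding, allowing up to 4 differences from the common form as long as the stem stayed paired. The common form is that of the first 4 elements listed below. It was found in 62 of them, 22 to 59 bases after the stop (median 32). The same search found it after 3 of 4680 other genes on the same chromosomes (0.0641%). The common form itself was present in 39 members, including all 5 H1 genes, 15 H2A, 12 H2B and 7 H3 genes, and in none of the H4 genes. The H4 genes carried changed pairs in the stem: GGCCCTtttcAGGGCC in 8 of them, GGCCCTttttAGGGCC in 2, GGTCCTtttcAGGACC in 2 and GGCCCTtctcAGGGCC in 1. No such element was found for Hist2h2be, Hist2h2bb and Hist1h2al. The elements of the members with the highest levels in each class, and of 1 H4 gene with the third kind of stem, are shown because they carry the feature that sets these mRNAs apart, with the 6-base arms of the stem in capitals and 5 flanking bases on each side (NCBI build 37, read 5′ to 3′ on the gene's strand, in the 3′ UTR except that of Hist1h2bc, which lies in the intron of its annotated 2-exon transcript).
Hist1h1c, chr13:23831376-23831401 (+): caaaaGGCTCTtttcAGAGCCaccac
Hist2h2aa1, chr3:96049950-96049975 (+): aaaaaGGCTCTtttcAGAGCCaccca
Hist1h2bc, chr13:23776511-23776536 (+): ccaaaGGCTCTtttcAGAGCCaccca
Hist2h3c1, chr3:96051245-96051270 (+): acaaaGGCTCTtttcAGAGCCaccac
Hist1h4i, chr13:22132830-22132855 (-): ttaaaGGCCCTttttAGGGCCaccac
Hist1h4j, chr13:21827301-21827326 (+): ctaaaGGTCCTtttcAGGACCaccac

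Histone cluster genes were detected widely but at low levels. Their median was 0.313 FPKM, beside 0.195 FPKM for all genes of the table. Of the 69 members, 82.6% reached 0.1 FPKM, beside 55.3% of all genes, but 26.1% (18 genes) reached 1 FPKM, beside 38.1% of all genes. Genes that supply or process histones were higher by far, with medians of 25.2 FPKM for 24 genes of histone mRNA metabolism and 63.1 FPKM for 16 histone chaperones and supply genes, and 36 DNA replication genes had a median of 28.1 FPKM. How mRNA was separated from total RNA is not stated in the sources used here, so a low level of an RNA and a low recovery of RNA without a poly(A) tail cannot be told apart.

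A few genes made up most of the signal. The summed level of the members was 109 ± 15.8 FPKM (SD, n = 4), which was 0.0227% of all FPKM in the table, and the 5 highest genes held 58.9% and the 10 highest 75.2% of it. H2A genes gave 54.3% of the sum, H2B genes 21.8%, H3 genes 9.47%, H4 genes 7.73% and H1 genes 6.70%. The cluster Hist1 on chromosome 13, with 54 genes, summed to 51.7 ± 3.49 FPKM (SD, n = 4), and the cluster Hist2 on chromosome 3, with only 11 genes, to 49.7 ± 15.5 FPKM (SD, n = 4). The cluster Hist3 on chromosome 11 has 3 genes and summed to 7.68 ± 1.75 FPKM (SD, n = 4). The only member of Hist4, the H4 gene Hist4h4 on chromosome 6, was at 0 in all 12 libraries. A count of 3 fragments over all libraries would have given it 0.067 FPKM, a limit that covers counting error only and takes the depth estimate to a transcript shorter than the genes it was fitted on.

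**Figure D1:**
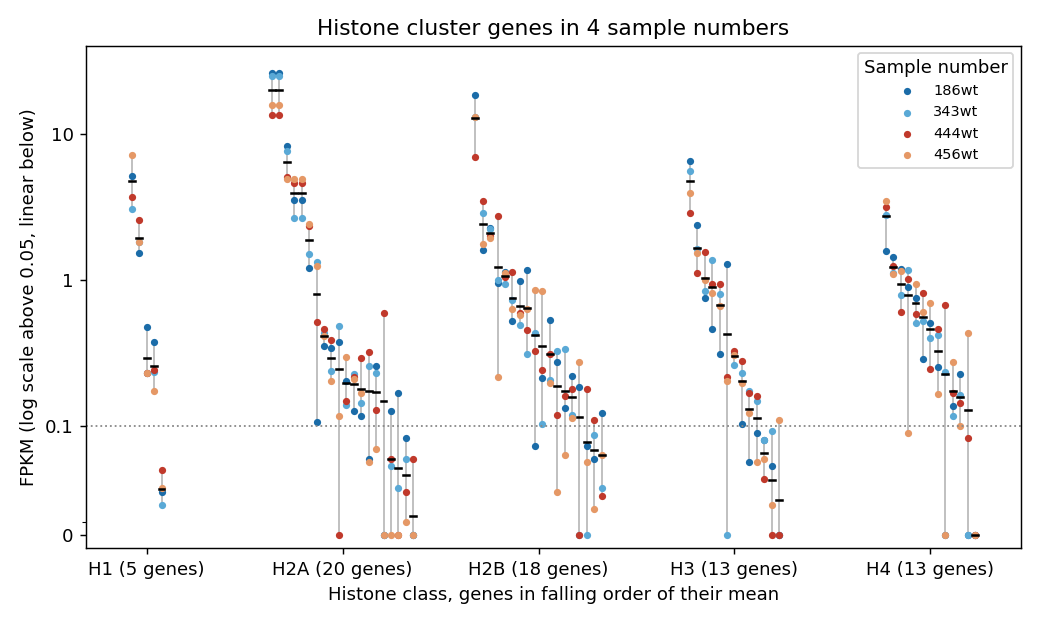
Levels of the 69 genes by histone class, as FPKM on an axis that is logarithmic above 0.05 and linear below. Each colored point is the mean of the 3 libraries of a sample number, the black bar is the mean of the 4 numbers, and the dotted line marks 0.1 FPKM. A few genes of each class stand above the rest, most clearly in H1, H2A and H2B, and most genes lie under 1 FPKM.

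Linker histone H1, which binds the nucleosome where DNA enters and leaves, was represented by 5 genes, and Hist1h1c and Hist1h1a gave most of their signal. Hist1h1c (chr13:23830676-23832235), encoding H1c, had 5.29, 4.98 and 5.22 FPKM in 186wt, 3.32, 2.56 and 3.32 in 343wt, 4.14, 3.89 and 3.13 in 444wt and 7.91, 7.47 and 6.19 in 456wt. It was highest in 456wt, next in 186wt, and the libraries of 444wt and 343wt overlapped below both. Hist1h1a (chr13:23855537-23856283), encoding H1a, a subtype known from testis, had 1.70, 1.53 and 1.35 FPKM in 186wt, 1.76, 1.4 and 2.34 in 343wt, 2.83, 2.65 and 2.26 in 444wt and 1.75, 1.69 and 2.03 in 456wt. Its highest libraries were in 444wt, and neighbouring numbers overlapped. Hist1h1b, Hist1h1e and Hist1h1d were lower, at 0.293 ± 0.125, 0.258 ± 0.0855 and 0.0358 ± 0.0110 FPKM (SD, n = 4).

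The H2A genes held the highest members of all. Hist2h2aa1 (chr3:96049461-96050038, + strand) and Hist2h2aa2 (chr3:96043639-96044216, − strand) point away from each other in the Hist2 cluster, and the table gave them equal values in all 12 libraries. None of the 100-base windows of their transcripts is unique, so reads cannot be assigned to 1 of the pair. The windows are shared with 18 genes in all, and the longer transcript of Hist2h3c1 covers most of the Hist2h2aa1 exon on the same strand, so the sum of the pair is uncertain too. Each was listed at 25.34, 26.41 and 26.41 FPKM in 186wt, 24.42, 25.14 and 25.65 in 343wt, 12.47, 14.79 and 13.20 in 444wt and 16.25, 14.48 and 16.32 in 456wt. All 6 libraries of 186wt and 343wt were above all 6 of the other numbers, and within each pair of numbers the libraries overlapped. Hist3h2a (chr11:58768187-58770176) followed the same split, with 7.65 to 8.63 FPKM in 186wt, 7.36 to 8.03 in 343wt, 4.39 to 5.81 in 444wt and 4.63 to 5.13 in 456wt. Its exon overlaps that of Trim17 on the same strand, and 67.7% of its windows are unique.

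Other H2A genes were lower and behaved differently. Hist1h2ao and Hist1h2ap also had equal values in all libraries and no unique window, at 3.26 to 4.02 FPKM in 186wt, 2.28 to 3.04 in 343wt, 3.6 to 5.36 in 444wt and 3.85 to 6.04 in 456wt. Here 343wt was lowest, with no library overlapping those of the other numbers. Hist1h2ag varied widely between libraries of the same number, with 0, 2.24 and 1.37 FPKM in 186wt and 0, 4.51 and 2.75 in 456wt. Under 50% of its windows are unique. The part of read division among near-identical genes in this spread was not tested. Hist1h2aa encodes TH2A, an H2A of the male germ line, and averaged 0.416 ± 0.0465 FPKM (SD, n = 4) with all its windows unique. Single libraries ran from 0, in 2 of them, to 0.99 FPKM, on about 25 estimated fragments over all 12. TH2B, the partner of TH2A, is encoded by Hist1h2ba, which the choice of members leaves out and which had 1.39 ± 0.246 FPKM. The testis-specific linker histone gene Hist1h1t had 0.133 ± 0.0688 FPKM (SD, n = 4 for both).

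Among H2B genes, Hist1h2bc (chr13:23776068-23784357) was by far the highest. It had 18.07, 17.53 and 19.71 FPKM in 186wt, 13.10, 14.63 and 11.60 in 343wt, 7.07, 6.57 and 7.38 in 444wt and 12.88, 13.86 and 12.58 in 456wt. The libraries of 186wt were above and those of 444wt below all others, and 343wt and 456wt could not be separated. The annotated transcript of Hist1h2bc has 2 exons, is spliced past the stem-loop shown above and ends beside an AATAAA signal, and 57.9% of its windows are unique. Hist1h2bj (chr13:22135083-22135545) had 1.21 to 2.15 FPKM in 186wt, 2.62 to 3.05 in 343wt, 2.93 to 3.89 in 444wt and 1.15 to 2.61 in 456wt, so that 343wt and 444wt were high. Hist2h2be (chr3:96025044-96027661), whose 2618-base annotated transcript has an AATAAA near its end and only unique windows, was the steadiest of the abundant members at 2.11 ± 0.154 FPKM (SD, n = 4; lowest library 1.74, highest 2.52). Hist1h2bk averaged 1.23 FPKM and ranged from 0 to 3.86 between libraries, with 29.7% of its windows unique.

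The H3 and H4 genes were lower. Hist2h3c1 (chr3:96049477-96052431; ENSMUSG00000070392) had 7.09, 5.38 and 7.11 FPKM in 186wt, 5.88, 5.45 and 5.45 in 343wt, 2.89, 2.99 and 2.77 in 444wt and 3.57, 4.37 and 3.92 in 456wt. It thus showed the order of its neighbour Hist2h2aa1, whose exon its longer annotated transcript overlaps on the same strand, and their values are not independent. A further row with the symbol Hist2h3c1 has no position in the annotation and was at 0 in 8 libraries. Hist2h3c2 (chr3:96042040-96043050), annotated as a pseudogene, had 1.67 ± 0.530 FPKM, Hist1h3a 1.04 ± 0.358 and Hist1h3h 0.898 ± 0.376 (SD, n = 4). The highest H4 gene was Hist1h4i (chr13:22132685-22133221) with 2.75 ± 0.821 FPKM, from 1.59 in 186wt over 2.77 in 343wt and 3.17 in 444wt to 3.46 in 456wt. Hist1h4n and Hist1h4k followed at 1.23 ± 0.157 and 0.937 ± 0.284 FPKM (SD, n = 4). The sum of the 13 H4 genes was 7.29 FPKM in 186wt, 8.23 in 343wt, 9.22 in 444wt and 9.03 in 456wt, with libraries of all 4 numbers between 7.15 and 9.51 apart from the lowest of 186wt at 6.63 and the highest of 444wt at 11.3.

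**Figure D2:**
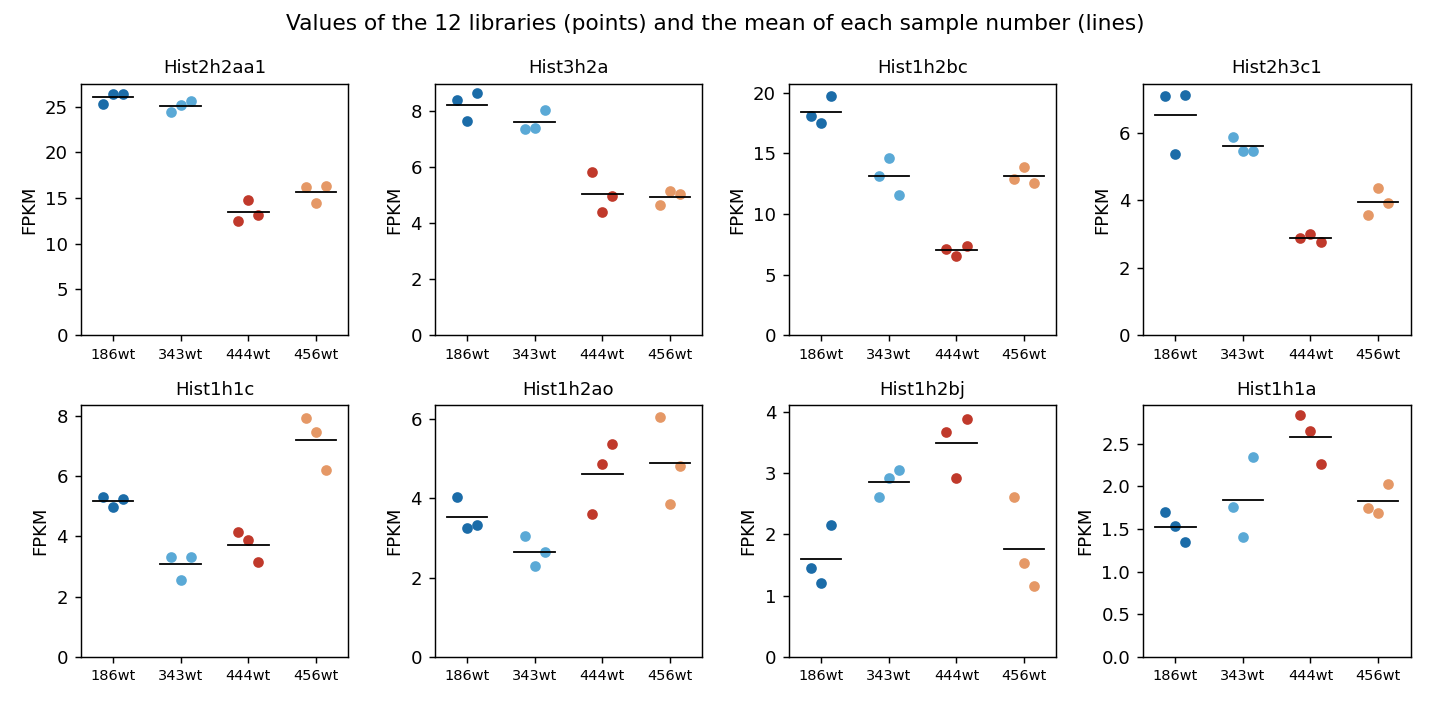
FPKM of 8 histone genes in the 12 libraries. Points are libraries, lines are the mean of the 3 libraries of a sample number, and each panel has its own axis starting at 0. Hist2h2aa1, Hist3h2a and Hist2h3c1 are high in 186wt and 343wt, Hist1h2bc is highest in 186wt and lowest in 444wt, Hist1h1c peaks in 456wt, and Hist1h2bj and Hist1h1a have their highest means in 444wt.

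Whether a gene differed between the sample numbers was tested with limma, by an F-test across the 4 numbers on log2(FPKM + 0.1) of the 12 libraries with Benjamini-Hochberg adjustment over all 20795 genes whose mean reached 0.1 FPKM. The spread in this test is that between libraries of the same number, which may be technical, so its p-values may not measure the spread between animals. The paper describes RNA from 4 replicates of germ cells, as many as there are sample numbers. If each number is 1 replicate, the 12 libraries are not 12 independent samples. The p-values would then be too small for a difference beyond these 4 preparations. Of the 57 members tested, 16 differed at an adjusted p under 0.05 (28.1%), while 58.2% of all genes tested did. This share followed the level. Of the 18 members at 1 FPKM or more, 11 differed (61.1%), beside 75.8% of all genes at that level, and of the 39 members between 0.1 and 1 FPKM, 5 differed, beside 19.2% of all such genes. The other 12 members were too low to be tested. All 8 members of at least 3 FPKM differed, 2 pairs among them being indistinguishable copies, beside 72.6% of all genes between 3 and 10 FPKM and 79.8% between 10 and 30 FPKM.

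The 5 members with the smallest p were Hist2h2aa1 and Hist2h2aa2 (adjusted p = 2.09e-07), Hist1h2bc (4.03e-07), Hist2h3c1 (1.47e-05) and Hist1h1c (4.69e-05), all by limma. The difference between their highest and lowest number was 0.95, 1.38, 1.14 and 1.205 on the log2(FPKM + 0.1) scale, for the copies together and then the other 3 in that order. It was 0.72 for Hist3h2a (adjusted p = 4.75e-05), 0.85 for Hist1h2ao and Hist1h2ap (0.00667), 1.11 for Hist1h2bj (0.0077), 1.02 for Hist2h3c2 (0.0111) and 0.72 for Hist1h1a (0.021), whose call was lost without library 3 of 186wt or library 1 or 2 of 444wt. The median gene between 3 and 10 FPKM ranged over 0.51, and the 5 members at that level over a median of 0.85. Some members of comparable level did not pass the test, among them Hist2h2be with a range of 0.20 (adjusted p = 0.367) and Hist1h4i with a range of 1.12 (adjusted p = 0.0824, or 0.0344 without library 1 of 186wt). Hist1h2bk had a range of 3.67 at an adjusted p of 0.0534 and passed the test in 8 of 24 alternatives.

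The largest ranges among the members that differed belonged to low genes near the limit of detection. Hist1h2ah was listed at 0.45, 0.25 and 1.08 FPKM in the libraries of 444wt and at 0 in the other 9 (adjusted p = 0.000599), a total of about 12.1 estimated fragments. Hist1h4f was at 0 in all 6 libraries of 186wt and 343wt, at 0.25, 0 and 0 FPKM in 444wt and at 0.64, 0.46 and 0.21 in 456wt (adjusted p = 0.00679), or about 7.64 fragments. Hist1h2ah reached the mean of 0.1 FPKM needed for the test only through 444wt, and Hist1h4f only through 456wt. Their calls, counted among the 16, therefore rest on the same values that let them be tested. Hist1h4c had 0, 0.27 and 0 FPKM in 456wt and 0.43 to 1.65 in the other numbers (adjusted p = 0.00236). Hist1h2aj, annotated as a pseudogene with 15.3% unique windows, was lowest in 186wt at a mean of 0.107 FPKM and highest in 343wt at 1.33 (adjusted p = 0.0209), and its call was lost without library 1 or 2 of 186wt or library 2 of 456wt. Hist2h2bb (chr3:96073644-96082924), which has only unique windows, had 0.28 to 0.38 FPKM in 343wt, 0.20 to 0.39 in 186wt, 0.08 to 0.19 in 444wt and 0 to 0.05 in 456wt (adjusted p = 0.00348). These levels rest on few fragments, and the part of how reads were divided among near-identical genes was not tested.

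**Figure D3:**
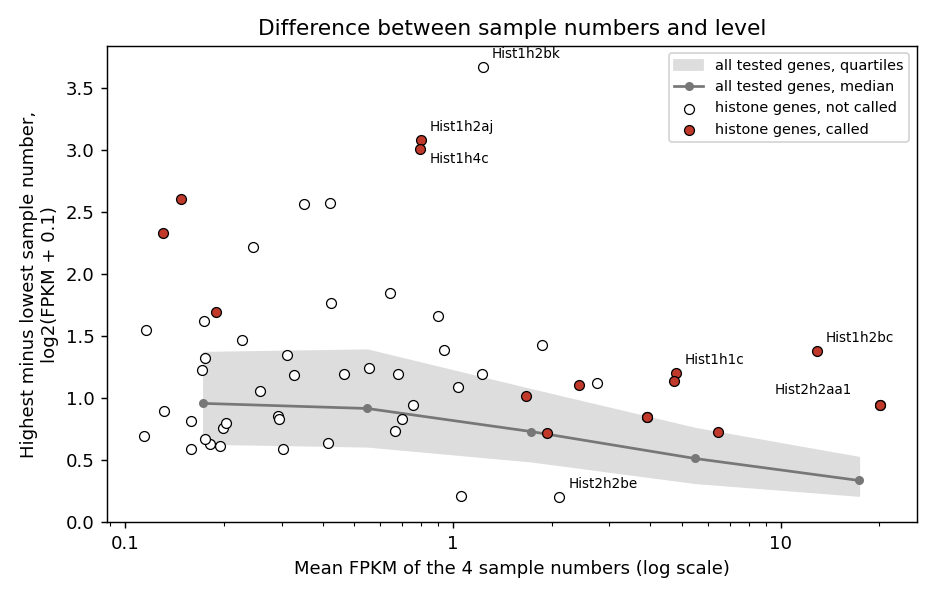
Difference between the highest and the lowest sample number, on the log2(FPKM + 0.1) scale, against the mean FPKM (log scale) for the 57 tested histone genes. Red points differed between sample numbers (limma, adjusted p under 0.05), white points did not, and the grey line and band give the median and quartiles of all tested genes of like level. Hist1h2bc and Hist2h2aa1 lie above the band at high levels, while Hist2h2be lies under it.

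The clusters had different orders of the sample numbers, given here as values with no test. The summed level of the Hist2 cluster was 65.4 FPKM in 186wt, 60.3 in 343wt, 33.7 in 444wt and 39.6 in 456wt, and no library overlapped those of another number. Without Hist2h2aa1 and Hist2h2aa2 the other 9 genes of the cluster had 13.3, 10.1, 6.71 and 8.18 FPKM in 186wt, 343wt, 444wt and 456wt. Most of this came from Hist2h3c1, which overlaps Hist2h2aa1, and from Hist2h3c2, which shares sequence with Hist2h3c1. Without these as well, the 7 genes left had 4.38, 2.90, 2.70 and 2.70 FPKM, and their libraries overlapped. The 7 include the further row named Hist2h3c1 that has no position. That row had 3.85 of the 7.03 FPKM in library 2 of 186wt, the highest sum, and was at 0 in the other libraries of 186wt. The Hist3 cluster, mostly Hist3h2a, had 9.49, 8.87, 6.26 and 6.11 FPKM in the same order. The Hist1 cluster stayed between 47.2 and 55.7 FPKM as a whole. Its 6 genes with an AATAAA in the last 40 bases of the annotated transcript, Hist1h2bc and Hist1h1c among them, had 24.6, 16.9, 11.6 and 21.01 FPKM. These sums are almost wholly Hist1h2bc and Hist1h1c, since the other 4 genes together had 1.05, 0.697, 0.903 and 0.713 FPKM. The 48 others had 27.7, 30.3, 40.1 and 34.7 FPKM, with 26.9 to 28.1 FPKM in the libraries of 186wt and 36.6 to 42.3 FPKM in those of 444wt. The libraries of 343wt (28.79 to 32.11 FPKM) overlapped those of 456wt (32.05 to 36.97 FPKM), and the latter overlapped those of 444wt. In Hist2, the 7 genes without such an AATAAA had 55.1, 52.3, 28.4 and 33.3 FPKM and the 3 with it 9.02, 7.98, 5.04 and 6.01. The first sums are mostly Hist2h2aa1 and Hist2h2aa2, and the second mostly Hist2h3c1, which overlaps Hist2h2aa1. They are therefore not independent and cannot show whether the order goes with the signal.

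Some markers of other cells and of cell division shared all or a part of these orders, given here with no test. The Sertoli sums given above have the split of the Hist2 and Hist3 clusters and of Hist2h2aa1, Hist3h2a and Hist2h3c1: all 9 markers found differed, and each was lower in 444wt and in 456wt than in 186wt and 343wt (for example Clu, 2289, 2380, 1251 and 1456 FPKM in 186wt, 343wt, 444wt and 456wt). Hist1h1c was highest in 456wt, as were all 5 markers of peritubular myoid cells, the smooth-muscle-like cells around the tubule, all 6 endothelial markers and the 2 erythroid genes that differed. Hist1h1c was lowest in 343wt, as were 4 of the 5 myoid markers, while Des was lowest in 186wt. The myoid sums were 533, 253, 670 and 1112 FPKM in 186wt, 343wt, 444wt and 456wt, and the endothelial sums 22.3, 28.3, 17.5 and 49.4 FPKM. All 6 Leydig, 6 endothelial and 6 macrophage markers were lowest in 444wt, where Hist1h2bc was lowest. Their highest numbers did not match, since Hist1h2bc was highest in 186wt, and all 6 Leydig and 5 of 6 macrophage markers in 343wt. Leydig sums were 56.5, 110, 16.1 and 60.9 FPKM and macrophage sums 17.9, 42.4, 8.92 and 36.4 FPKM. The 10 meiotic prophase markers found summed to 401, 306, 509 and 361 FPKM in 186wt, 343wt, 444wt and 456wt. The 7 markers of undifferentiated spermatogonia summed to 95.2, 111, 132 and 133 FPKM. The 36 DNA replication genes summed to 1065 FPKM in 186wt, 1100 in 343wt, 1474 in 444wt and 1367 in 456wt. That is the order of the means of the 48 Hist1 genes without an AATAAA near the end of the annotated transcript. It is not particular to them. The 53 Hist1 genes other than Hist1h2bc, which was left out after its values were seen, had 33.9, 34.1, 44.7 and 42.6 FPKM. Libraries of 186wt and 343wt overlapped in these sums, as did those of 444wt and 456wt. Some of the 48 genes, such as Hist1h1d and Hist1h2ac, are annotated to run far past the stem-loop. The 6 markers of differentiating spermatogonia summed to 241, 256, 382 and 315 FPKM. The part of cell composition in the histone differences was not tested, and in such bulk samples fewer cells of a type and less RNA per cell cannot be told apart.

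**Figure D4:**
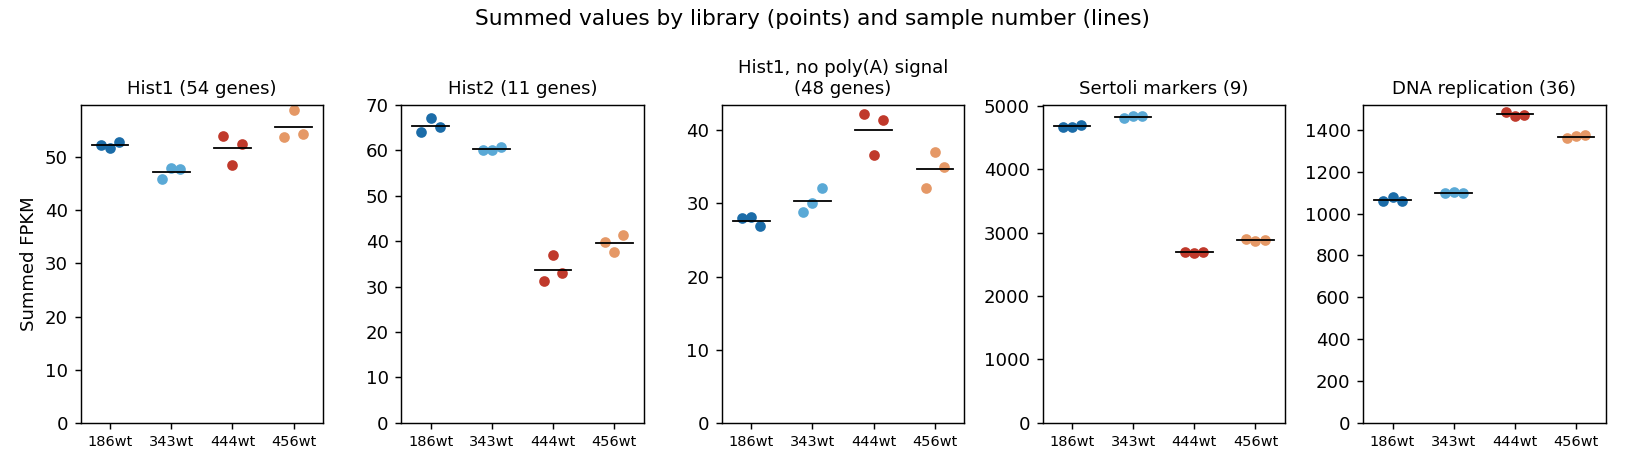
Summed FPKM in the 12 libraries (points) and the mean of each sample number (lines), each panel with its own axis starting at 0. Panels show clusters Hist1 and Hist2, the 48 Hist1 genes without an AATAAA near the annotated end, 9 Sertoli markers and 36 DNA replication genes. Hist2 and the Sertoli markers are high in 186wt and 343wt, and the 48 Hist1 genes and the replication genes are highest in 444wt.

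Along chromosome 13 the Hist1 genes lay in 2 stretches and 1 outlying gene. The first stretch (chr13:21807632-22135545) held 24 members with a median of 0.672 FPKM, 7 of them at 1 FPKM or more, and its highest were Hist1h2ao and Hist1h2ap at 3.92 FPKM. The second (chr13:23622919-24026720) held 29 members with a median of 0.245 FPKM, 4 of them at 1 FPKM or more, including Hist1h2bc at 12.9 FPKM and Hist1h1c at 4.79 FPKM. Hist1h2al, an H2A gene at chr13:51298057-51298434, had a value above 0 in a single library (0.18 FPKM). Neighbours were listed at widely different levels. Hist1h2bk, Hist1h4i, Hist1h2ag and Hist1h2bj, all over 1 FPKM, lay together at the end of the first stretch beside Hist1h2ah at 0.148 FPKM. Of these, Hist1h2bk, Hist1h2ag and Hist1h2ah have under 50% unique windows, and Hist1h2ag and Hist1h2ah share windows with each other. Their single levels are therefore uncertain, and the part of read division in the contrast was not tested.

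**Figure D5:**
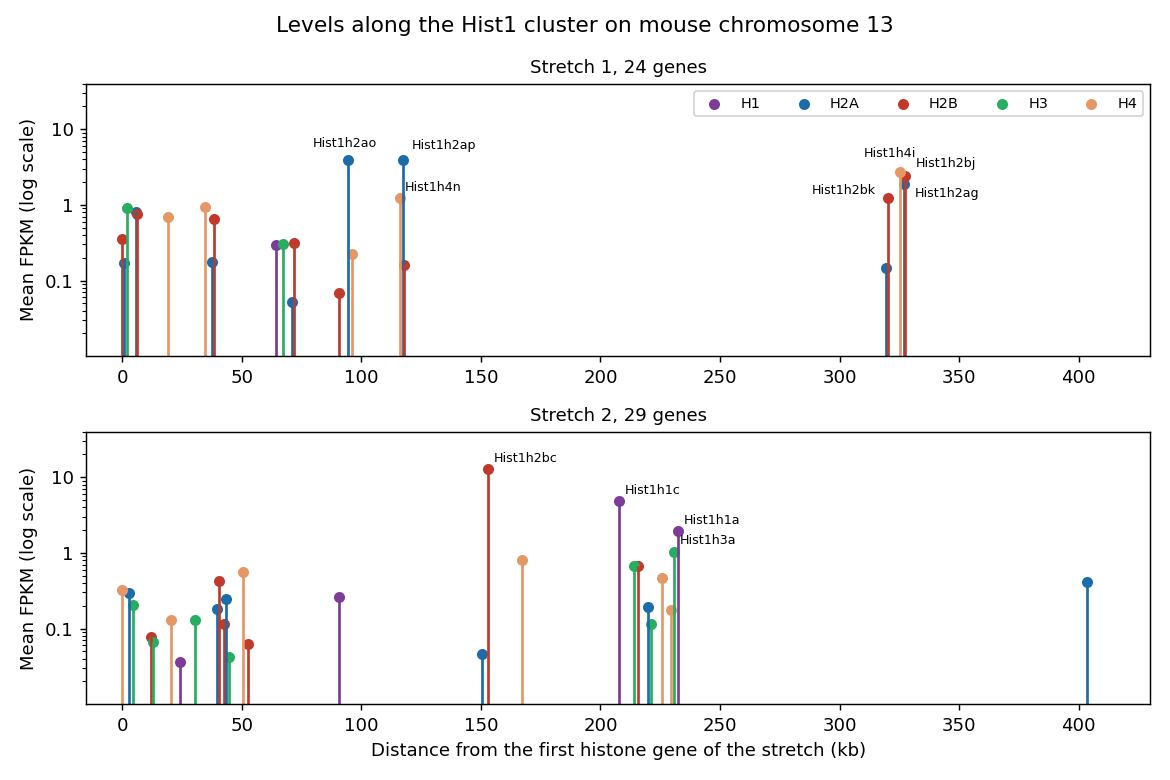
Mean FPKM (log scale) of the Hist1 genes along both stretches of mouse chromosome 13, as distance in kb from the first histone gene of the stretch, with color for the histone class and names for genes of at least 1 FPKM. In the first stretch such genes lie in its middle and at its far end, and in the second the highest are Hist1h2bc and Hist1h1c.

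The annotated ends of the transcripts are set beside the levels as a description, with no test. Of the protein-coding members, 15 had transcripts annotated to end at or before the stem-loop (median 0.352 FPKM), 27 ran 1 to 100 bases past it (median 0.464 FPKM) and 20 ran further (median 0.173 FPKM). The 10 members with an AATAAA near the end had a median of 0.686 FPKM (0.158 to 12.9), with 5 at 1 FPKM or more, and the 55 others 0.294 FPKM (0 to 20.1), with 12 at 1 FPKM or more. The highest members were of both kinds. Hist2h2aa1 and Hist3h2a, which end 68 and 1487 bases past their stem-loops, had no such signal. Hist1h2bc at 12.9 FPKM and Hist1h1c at 4.79 FPKM had one. Across the 68 members with a position, Spearman's rho between mean FPKM and transcript length was 0.0159, and between mean FPKM and the percentage of unique windows −0.19, given as a description of genes that share sequence.

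The genes that make, process and carry histones were expressed throughout. Of 24 genes of histone mRNA metabolism, 20 differed (83.3%), which is near the share of all genes of at least 10 FPKM (84.5%), and 14 of the 20 were highest in 444wt. Slbp, which encodes the protein bound to the stem-loop, had 80.5 to 82.9 FPKM in 186wt, 80.7 to 81.8 in 343wt, 99.1 to 105 in 444wt and 89.9 to 95.5 in 456wt (adjusted p = 2.25e-06). Npat, the coactivator that cyclin E and Cdk2 turn on at histone genes, had a mean of 16.2 FPKM in 186wt and 343wt, 20.7 in 444wt and 17.2 in 456wt (adjusted p = 0.000183). Casp8ap2, which encodes the processing factor FLASH, had 19.7, 16.4, 24.7 and 20.4 FPKM (adjusted p = 0.00247). The U7 snRNP proteins Lsm10 and Lsm11 had 12.0, 14.6, 14.96 and 17.7 FPKM and 3.87, 4.24, 4.92 and 4.25 FPKM (adjusted p = 0.00183 and 0.0414), so that Lsm10 was highest in 456wt. Ccne1, Eri1, Mblac1 and Srrt did not pass the test (adjusted p = 0.0657, 0.122, 0.258 and 0.0511).

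Of 16 histone chaperones and supply genes found, 15 differed (93.8%, beside the same 84.5%), 11 of them highest in 444wt. That share covers all genes of at least 10 FPKM and rose with level, while the median of these genes was 63.1 FPKM. It is therefore not matched to their level. Nasp, a chaperone for H1 and for H3 and H4, had 136, 125, 176 and 149 FPKM in 186wt, 343wt, 444wt and 456wt (adjusted p = 1.19e-08). Asf1b, which hands H3 and H4 to the replication fork, had 33.5, 32.8, 44.6 and 41.5 FPKM (adjusted p = 2.25e-05). Chaf1a, the large subunit of the chromatin assembly factor that works at the fork, had 21.7, 20.9, 29.8 and 25.5 FPKM (adjusted p = 6.18e-06). Of the 36 DNA replication genes, 34 differed (94.4%, beside 84.5%), 30 of them highest in 444wt and 4 in 456wt. The share of all genes that were highest in 444wt is not given here, so the counts of these 3 lists cannot be set against it. Also highest in 444wt were 9 of 10 meiotic prophase and 5 of 6 differentiating spermatogonia markers. Only 2 of 7 undifferentiated spermatogonia and 0 of 9 Sertoli markers were. Pcna, the sliding clamp of replication, had 90.6, 94.5, 121 and 117 FPKM (adjusted p = 9.28e-07). Hist1h2bj and Hist1h1a likewise had their highest mean in 444wt, whereas Hist2h2aa1, Hist2h3c1 and Hist1h2bc had their lowest there.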

How the data were processed

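RNA-seq libraries of B6 germ cells at 12 dpp were analysed. The Affinity-seq and ChIP-seq samples were not used. The authors made the deposited FPKM with RSEM 1.2.8 from 100-base paired reads, which Bowtie 0.12.9 had placed on transcripts of NCBI build 37. A strand setting was not stated. RSEM divides reads among near-identical transcripts, so single members of such groups are uncertain, and 25 members had under 50% unique 100-base windows. All 12 columns of values were used.

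The members and gene lists were chosen with earlier results of these data known. Supt16, Rhox5 and Meiob had no row under those symbols. Positions, transcripts and sequences came from NCBI build 37 with GENCODE M1, where 68 members were found (65 protein-coding, 3 pseudogenes). Genes whose mean reached 0.1 FPKM were compared by limma 3.58.1 under R 4.3.3 (F-test over 4 sample numbers, eBayes with trend, Benjamini-Hochberg adjustment) on log2(FPKM + 0.1). On simulated data the test recovered 65.5% of 200 genes shifted by 1 log2 unit. Python 3.11.15 was used for the rest (pandas 2.3.3, numpy 2.4.6, scipy 1.17.1, matplotlib 3.10.9).

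The text names the 4 highest members of each class, the 5 with the smallest p, the 5 with the largest range among those that differed, protein-coding members at 0 in all libraries, Hist1h2aa and 9 genes of histone supply. Other members named were picked after their values were seen. Depth was estimated from the steps between low FPKM of 559 genes (library totals of 13.5 to 18.1 M fragments). Alternatives were other pseudocounts, filters, scalings and fits, a replicate block, each library and each sample number left out, and members with few unique windows left out.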

Additional observations from a re-analysis of the deposited data

Results flagged for a closer look

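Among 54 values compared over the 4 sample numbers, 3 had a sample number set apart from the others by more than the critical gap of Dixon's test. About 1 in 20 such groups would show this by chance. Hist1h1b, which encodes the linker histone H1b, had 0.48 FPKM in 186wt and 0.23 in each of the other numbers, on about 35.9 estimated fragments over all libraries, and the libraries overlapped. Hist1h2ah had 0.593 FPKM in 444wt and was at 0 in the others, on about 12.1 estimated fragments. With the other numbers all at 0, any value in 444wt would have been set apart. The median of 5 spermatid markers was 0.23 FPKM in 444wt, beside 0.0733 in 186wt, 0.08 in 343wt and 0.0567 in 456wt.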

How the results depend on the processing

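Over the alternatives that changed the test, 12 to 19 members differed between the sample numbers, beside 16 in the test reported, 13 to 18 of them with 1 library or 1 sample number left out. The count was 9 of 35 without members under 50% unique windows, which is a smaller set, and then the median of the members was 0.258 FPKM and their sum 48.9 FPKM. With 1 FPKM as the limit, 18 members passed in place of 57. With a library or sample number left out, 13 to 20 of 24 genes of histone mRNA metabolism differed. The lowest count, 13 in place of 20, came without the libraries of 444wt, and the cause was not tested. In the same alternatives 13 to 15 of 16 chaperone and supply genes and 31 to 35 of 36 DNA replication genes differed. With the library number as a replicate block, 19 members, 19 metabolism genes, 15 chaperone genes and 34 replication genes differed. The numbers did not pair the libraries, since deviations of same-numbered libraries correlated at −0.041 to 0.030 over 18 pairs and those of others at −0.034 to 0.040 over 36. Hist2h2aa1, Hist1h2bc, Hist2h3c1, Hist1h1c, Hist3h2a and Hist2h2bb passed in every alternative in which they were tested. Hist2h2be passed after centring each library on its median (adjusted p = 0.0381). Hist1h1a, Hist1h2ah, Hist1h2aj, Hist1h2ao, Hist1h2bj, Hist1h4c, Hist1h4f and Hist2h3c2 lost their call without the libraries of at least 1 sample number. With Hist1h2bc left out, chosen after its values were seen, the Hist1 cluster summed to 38.8 FPKM. Without Hist2h2aa1 and Hist2h2aa2, chosen likewise, the Hist2 cluster summed to 9.58 FPKM. Without Hist2h3c2 and the Hist2h3c1 row that has a position, it summed to 3.17 FPKM. Depth limits genes under about 1 FPKM, where 1 fragment is worth a sizeable part of the value.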
